A study of Mus musculus with 2 samples.

Results

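Dermal fibroblasts with little or no Dlk1 RNA were examined in dorsal skin of mice at postnatal day 3. The cells were chosen by their RNA. A barcode had to hold at least 1000 unique molecular identifiers (UMIs, counts of captured RNA molecules), at least 500 genes and under 15% mitochondrial UMIs. Per 10000 UMIs it had to hold at least 50 of Col1a1, Col1a2 and Col3a1 together, under 100 of all keratins and under 5 of Dlk1. At most 2 markers each of dermal papilla (of 8), adipocytes (of 6) and mural cells (of 5) could be detected. This gave 764 of 10436 barcodes that passed the depth, gene and mitochondrial limits, 524 of 5178 in the control library and 240 of 5258 in the induced library. Dlk1 (ENSMUSG00000040856, chr12:109452823-109463336, plus strand, GRCm38) and the other genes of the choice are therefore no finding here.

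The study had 1 control library, genotype Wildtype, and 1 library of genotype miR-200b induced, and both carry the treatment Dox (doxycycline). The labels describe neither the inducible construct nor the cells that express it, nor how many mice were pooled. Epidermis and dermis were dissociated apart and recombined 30 to 70 before 10x Genomics 3′ capture, so shares of cells are in part set by hand. There were no replicates, so every difference below is between these libraries, intervals are 95% exact and cover counting error only, and no test was possible.

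Dermal fibroblasts build the collagen and elastic matrix of the skin. In the newborn they are already divided into papillary cells under the epidermis, reticular cells that lay down the thick collagen bundles, and deeper cells that include precursors of adipocytes. Dlk1 is a paternally expressed, imprinted transmembrane protein with EGF-like repeats that inhibits adipogenesis and marks the lower dermal lineage in young skin. The microRNA-200 family represses Zeb1 and Zeb2 in epithelial cells.

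The fibroblast label was checked on the 5 fibroblast markers that were not used in the choice, Dcn, Lum, Pdgfra, Col5a1 and Col6a1. They summed to 10550 UMIs per 1000000 (CPM) in control members against 799.5 CPM over all passing control barcodes, and to 7276 CPM against 182 CPM in the induced library. At least 3 of the 5 were detected in 492 control and 220 induced members. With Col1a1, Col1a2 and Col3a1, which chose the cells, the sums were 64311 and 38610 CPM. Dlk1 had no UMI in 88.5% of control and 88.3% of induced members. Just inside the limit the highest Dlk1 level was 4.74 and 4.79 per 10000 UMIs in the control and induced libraries, and just outside it the lowest was 5.09 and 5.66. The limit removed 31 control and 33 induced barcodes that met every other condition, so members were 94.4% (92.2 to 96.2) and 87.9% (83.4 to 91.5) of the barcodes that met them.

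Members made up 10.1% (9.31 to 11.0) of passing control barcodes and 4.56% (4.02 to 5.16) of passing induced barcodes. The log2 ratio of these shares was -1.15 (-1.38 to -0.93). Members had a median of 9201 UMIs (1129 to 44173) in the control library and 6279.5 UMIs (1002 to 18638) in the induced library, with medians of 3087.5 and 2332.5 genes. The whole libraries held 100409201 and 119705137 UMIs in 9072 and 9114 barcodes. The libraries shared 74 barcode sequences, of which 2 were members in either library and 0 in both.

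Markers of several other cell types were higher in induced members. The 8 adipocyte markers stood at 165 CPM in control and 1368 CPM in induced members, with 4 and 1 of them at 0, against 174 and 206 CPM over all passing barcodes. Of these, Fabp4 (94 and 1109 UMIs) and Lpl (756 and 1006 UMIs) gave nearly all. The other 6 were capped by the choice, but among barcodes within the collagen and keratin limits only 0 control and 1 induced exceeded that cap. The 8 mural markers, 5 of them capped, stood at 151 and 544 CPM, against 115 and 74.8 CPM. Acta2 was higher in induced members (56.4 and 482 CPM), while Des, an intermediate filament of muscle, was lower (58.2 and 10.3 CPM). The 10 dermal papilla markers, 8 of them capped by the choice, stood at 351 and 602 CPM, against 64.5 and 57.6 CPM over all passing barcodes. The 6 dermal sheath markers stood at 355 and 699.6 CPM, against 119.7 and 63.2 CPM, and the 5 tendon-like markers at 111 and 143 CPM, against 16.4 and 8.72 CPM. The summed adipocyte, mural, dermal papilla, dermal sheath and tendon-like markers of induced members thus exceeded their level over all passing barcodes, and their part in each result was not tested beyond leaving out sub-clusters. Markers of keratinocytes, melanocytes, endothelial and immune cells lay below their level over all passing barcodes. The 10 keratinocyte markers summed to 951 and 1261 CPM, and the 6 melanocyte markers to 16.8 and 179 CPM. The 8 endothelial markers reached 13.7 and 16.8 CPM, and the 10 immune markers 4.83 and 5.80 CPM, with 4 and 7 of the latter at 0. If every keratin UMI in members were free RNA from keratin-rich cells, free RNA would be 2.64% of control and 3.59% of induced member UMIs.

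The members were not uniform. Leiden clustering of both libraries together, without the genes of the choice or cell cycle genes, gave 11 sub-clusters, of which 6 drew at least 90% of their cells from 1 library. These 6 held 218 control and 49 induced members. Their sizes and leading genes come from the same RNA that formed them and are a description. Only sub-clusters 0, 1 and 3 had at least 20 members from both libraries, 268 control and 179 induced in all.

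**Figure D1:**
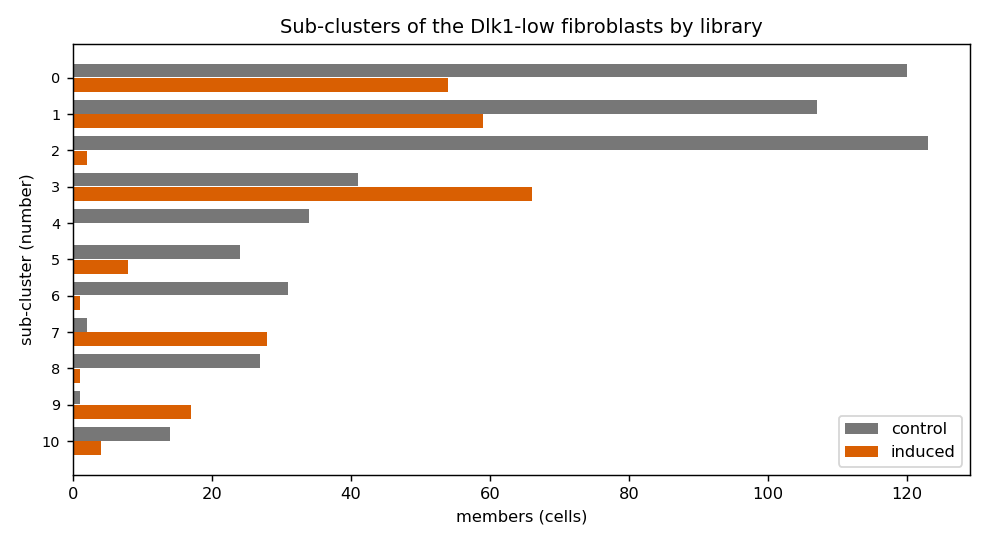
Number of Dlk1-low fibroblasts (horizontal axis, cells) in each sub-cluster (vertical axis, by number) in the control (grey) and induced (orange) libraries. Sub-cluster 2 holds 123 control and 2 induced cells, and sub-cluster 3 holds 41 control and 66 induced cells.

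Sub-cluster 0 (120 control and 54 induced members) was led by Grem1, a secreted BMP antagonist, with Cldn10, Id2 and Thbs2. In sub-cluster 1 (107 and 59 members) the leading genes were Mfap4, a microfibril-associated protein, Rbp4, Dpep1 and the chemokine Cxcl12. Sub-cluster 3 (41 and 66 members) was led by Igf1, Ndnf, Col13a1 and Eln, the elastin gene. Igf1 stood at 1080 CPM there and 24 CPM in all other members. Sub-cluster 2, with 123 control and 2 induced members, had Chodl, Cthrc1, Tac1 and Prss35 among its leading genes. Sub-cluster 4, led by Ndnf, Mmp16, Prss35 and Wnt5b, held 34 control members and no induced member.

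Smaller sub-clusters carried genes of other programmes. Sub-cluster 5 (24 control and 8 induced members) had Egfl8 and Mbp among its leading genes and is left unnamed. Sub-cluster 6 (31 and 1 members) was led by the smooth muscle actin Actg2 and held Mylk, Myl9 and Acta2. Sub-cluster 9 (1 and 17 members) was led by Acta2 at 3843 CPM with Igfbp4 and Slco2a1. Sub-cluster 7 (2 and 28 members) was led by Fabp4, a fatty acid carrier, with Igfbp6, Mgp, Apod and Cd36. Sub-cluster 8 (27 and 1 members) was led by mitotic genes, with Top2a at 861 CPM against 24.1 CPM elsewhere. Sub-cluster 10 (14 and 4 members) was led by Coch, at 9725 CPM against 63.6 CPM, with the tendon genes Kera and Tnmd. Sub-clusters 5, 6, 7 and 9 were set apart by their first leading gene. List counts are also given without them, over 466 control and 186 induced members. Of the leading genes of sub-cluster 7 only Fabp4 is a cell type marker used here. Its Mgp and Mfap5 are of the reticular list, so leaving it out may also remove fibroblasts. The set of 4 was chosen after these values had been seen, and sub-cluster 10, with its tendon genes, was kept in.

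UMIs of all members were then summed per library and compared gene by gene. A gene was tested for size when it had at least 50 UMIs over both libraries and 20 CPM in the higher one, and it was counted as different when CPM + 10 differed at least 2-fold. Of 6914 such genes, 250 (3.62%) were higher and 174 (2.52%) lower in the induced library, with a median log2 ratio of -0.01. Without the 4 sub-clusters, 193 of 6823 genes (2.83%) were higher and 186 (2.73%) lower. A gene in the lists below passes the minimum more easily when 1 library is high, so counts over the genes that passed describe these libraries and carry no support of their own. For single genes the log2 ratio of CPM and its interval are given, while list medians and values within sub-clusters are on the CPM + 10 scale.

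**Figure D2:**
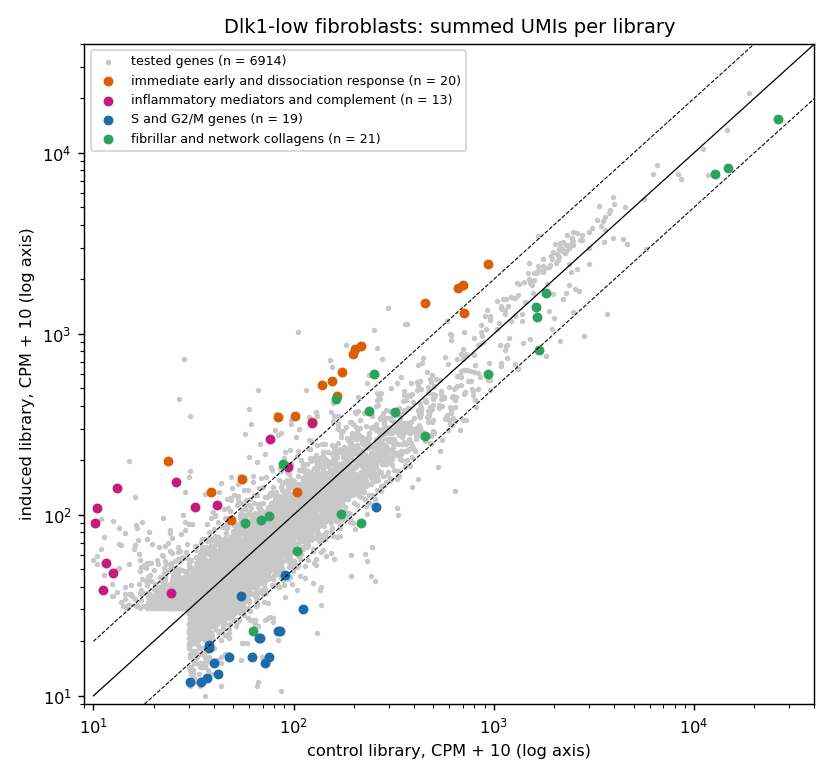
Level of each tested gene in Dlk1-low fibroblasts, CPM + 10 on log axes, control (horizontal) against induced (vertical), each point 1 gene summed over members. Solid and dashed lines mark equality and 2-fold. Immediate early (orange) and inflammatory (pink) genes lie mostly above the upper dashed line, S and G2/M genes (blue) mostly below the lower one, and the 3 most abundant collagens, Col3a1, Col1a1 and Col1a2 (green), lie under the solid line.

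Immediate early genes, which cells switch on within minutes of a stimulus or of tissue dissociation, were higher in induced members. Of the 22 listed, 20 passed the minimum and 17 were at least 2-fold higher, against 3.62% of all tested genes, with none lower and a median log2 ratio of 1.75. Fos, a subunit of the AP-1 transcription factor, stood at 443 CPM in control and 1464 CPM in induced members, a log2 ratio of 1.73 (1.64 to 1.81). Its partner Jun stood at 651 and 1791 CPM (1.46, 1.39 to 1.53). Junb, another AP-1 subunit, rose to 813 from 193 CPM (2.08, 1.96 to 2.20). The induced value was the higher one for all 3 subunits.

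Egr1, a zinc finger factor of the serum response, stood at 128 and 512 CPM (2.0, 1.85 to 2.15). Btg2, an antiproliferative gene, reached 852 CPM in induced against 206 CPM in control members. Klf2, a Krüppel-like factor (chr8:72319033-72321656, plus strand, GRCm38), had 70 UMIs in control members and 293 in the less deeply sampled induced members, that is 13.5 CPM (10.5 to 17.1) and 189 CPM (168 to 212), the widest gap in the list. The 3 genes that passed the minimum without reaching 2-fold were Jund (log2 0.88), Dnajb1 (0.95) and Atf3 (0.36) on the CPM + 10 scale.

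The list held in the shared sub-clusters, with different strength. Without the 4 sub-clusters, 17 of 20 genes were at least 2-fold higher, with a median of 1.63, against 2.83% of all tested genes. In sub-cluster 1 all 18 tested genes were (median 2.16), against 3.50% of all genes tested there. In sub-cluster 3 it was 13 of 15 (1.37), against 4.93%, and in sub-cluster 0 it was 7 of 16 (0.93), against 3.07%. Per cell, after each member had been thinned to 2000 UMIs, the list had a median of 5 UMIs (quartiles 3 and 11) in 520 control members and 17 UMIs (6 and 43) in 217 induced members. The quartile ranges overlap, so some induced members lay at control levels. In the 31 control and 33 induced Dlk1-high fibroblasts 13 of 18 tested genes were at least 2-fold higher, against 8.96% of the 1418 genes tested in so few cells. In 3789 control and 3833 induced keratin-rich barcodes 0 of 22 were higher, against 2.10%, and 3 lower, against 3.94%, with a median of -0.46. Induced members were also shallower, with a median of 6279.5 against 9201 UMIs, and the part of depth in the list was not tested beyond the thinning.

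Heat shock genes of the same list were among its most abundant members. Hspa1a and Hspa1b encode the stress-inducible chaperone HSP70, and because the copies are nearly identical, reads may be divided between them unevenly. Hspa1a stood at 925 and 2433 CPM (log2 1.40, 1.33 to 1.46), and Hspa1b at 696 and 1856 CPM (1.42, 1.34 to 1.49). Hspb1, a small heat shock protein, stood at 188 and 769 CPM (2.03, 1.91 to 2.15). A UMI of Hspa1a was found in 40.2% of control and 69.1% of induced members after thinning, and in 55.3% and 78.3% before it. All 3 genes were higher in the induced library.

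The promoters of heat shock and AP-1 genes were read because these members moved together. The 250 bases before the start were taken from RefSeq (GRCm38.p6), which matched 19 of the 22 genes. The core letters of a heat shock element, GAANNTTC on either strand (the letters read the same on both), was present in 4 of the 19 (21.1%), Hspa1a, Hspa1b, Hspb1 and Jun, against 6.69% of 32851 promoter windows, and in 5 of 20 S and G2/M genes. The cAMP response element TGACGTCA, also the same on both strands, was in 2 of the 19 (10.5%), Btg2 and Dusp1, against 1.55%. A match is a description of letters, not a shown site. The windows of Hspa1a (chr17:34972157-34972406, minus strand) and Jun (chr4:95052223-95052472, minus strand) are shown 5′ to 3′ with the heat shock letters in capitals.
Hspa1a: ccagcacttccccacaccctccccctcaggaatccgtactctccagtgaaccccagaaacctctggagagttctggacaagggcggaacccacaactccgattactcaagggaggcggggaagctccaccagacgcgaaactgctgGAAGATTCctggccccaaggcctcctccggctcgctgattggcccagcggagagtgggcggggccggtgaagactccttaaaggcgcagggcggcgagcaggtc
Jun: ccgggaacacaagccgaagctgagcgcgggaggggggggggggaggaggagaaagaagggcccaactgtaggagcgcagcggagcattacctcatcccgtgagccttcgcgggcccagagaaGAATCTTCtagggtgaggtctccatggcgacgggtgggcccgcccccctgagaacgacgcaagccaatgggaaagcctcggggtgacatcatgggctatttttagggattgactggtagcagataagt

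Inflammatory mediators and complement genes were also higher in induced members. Of 28 listed, 13 passed the minimum and 11 were at least 2-fold higher, against 3.62% of all tested genes, with none lower and a median log2 ratio of 1.80. The other 15 had too few UMIs, among them Il6 (0.773 and 5.80 CPM), Ptgs2 (0.386 and 1.29 CPM), and C3, which had no control UMI and 0.645 CPM in induced members. Ccl2, a chemokine that attracts monocytes, stood at 3.09 CPM in control and 130.2 CPM in induced members (log2 5.40, 4.66 to 6.23). It was detected in 2.10% and 7.92% of members (0.192% and 5.99% after thinning), so most induced members had no Ccl2 UMI. Ccl7, a related chemokine, stood at 0.386 and 99.3 CPM (8.01, 6.13 to 11.06), and the neutrophil chemokine Cxcl5 at 0.193 and 80.6 CPM (8.70, 6.20 to 14.02), found in 2.08% of induced members.

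Inhibitors on the same list were detected in more cells than Ccl2, Ccl7 and Cxcl5. Nfkbia, which holds NF-kB in the cytoplasm, stood at 66.5 and 251 CPM (log2 1.92, 1.71 to 2.13), and Socs3, an inhibitor of cytokine receptor signalling, at 114 and 310.1 CPM (1.44, 1.26 to 1.61). Serping1, the inhibitor of the first complement component, stood at 22 and 101 CPM (2.20, 1.84 to 2.56). A UMI of Nfkbia was found in 31.7% of control and 43.3% of induced members, one of Socs3 in 20% and 32.5%, and one of Serping1 in 14.3% and 27.9%. After thinning these shares were 9.23% and 23.5%, 8.46% and 21.7%, and 4.62% and 12%. Nfkbia was higher in sub-clusters 0, 1 and 3 by log2 1.65, 1.5 and 2.07, and Socs3 by 1.66, 2.63 and 1.69. Ccl11, an eosinophil chemokine at 1.55 and 44.5 CPM over all members, had a log2 ratio of -0.04 without the 4 sub-clusters. There 8 of 10 tested genes of the list were at least 2-fold higher (median 1.62), against 2.83%. The immune cell markers in the members stood at 4.83 and 5.80 CPM, and any part of immune cells in these differences was not tested.

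The 3 collagens of the choice stood lower in induced members. Col1a1 (chr11:94936224-94953042, plus strand) stood at 14787 CPM in control and 8243 CPM in induced members, Col1a2 at 12732 and 7614 CPM, and Col3a1 at 26241 and 15477 CPM. These 3 were selected on a lower limit only and are described, not tested. Of the other 19 collagen genes 18 passed the minimum, with 3 at least 2-fold higher, 3 lower, against 3.62% and 2.52% of all tested genes, and a median log2 ratio of -0.16 (-0.41 over all 21 tested). Col6a3, a chain of the microfibrillar type VI collagen, stood at 1665 and 807 CPM (-1.05, -1.13 to -0.96). Col14a1, which binds collagen fibrils, stood at 207 and 80.6 CPM and was lower in sub-clusters 0, 1 and 3 by log2 values of -2.85, -1.78 and -2.17.

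The collagens that were higher were mostly those of basement membranes. Col4a1 stood at 241 and 591 CPM and Col4a2 at 152 and 425 CPM. With the 4 sub-clusters left out their log2 ratios were 0.40 and 0.38, and the ratio of Col11a1 turned from 1.13 to -0.45. None of the 17 tested collagens outside the choice was then at least 2-fold higher, and 2 were lower (median -0.25). In sub-cluster 3 the log2 ratio of Col3a1 was 0.01, and those of Col1a1 and Col1a2 were -0.39 and -0.34.

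Genes that fold, trim and crosslink collagen had 0 members at least 2-fold higher and 3 lower among 20 that passed the minimum, against 3.62% and 2.52% of all tested genes, with a median log2 ratio of -0.44. Serpinh1, the collagen chaperone HSP47, stood at 2828 CPM in control and 959 CPM in induced members (-1.56, -1.64 to -1.48). It was lower in sub-clusters 0, 1 and 3, by log2 -1.57, -1.11 and -1.12. P3h1, a prolyl hydroxylase of collagen, stood at 161 and 66.4 CPM (-1.28, -1.59 to -0.98), and P4ha2, another, at 245 and 113 CPM (-1.12, -1.35 to -0.89). Without the 4 sub-clusters 3 of 20 were lower (Serpinh1, P3h1 and Fkbp10) and 1, Lox, was higher, against 2.73% and 2.83%. Over all members Lox, which crosslinks collagen and elastin, stood at 192 and 361 CPM (0.91, 0.76 to 1.06). Serpinh1 thus differed in the opposite direction to the chaperones Hspa1a and Hspb1 in the same cells.

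Small leucine-rich proteoglycans, which coat collagen fibrils, did not move as a group. Of 7 tested, 1 was at least 2-fold higher and 2 were lower, against 3.62% and 2.52%, with a median of 0.39. With the 4 sub-clusters left out 0 of 6 were higher and 2 lower, Ogn and Lum. Lum (lumican) stood at 3672 and 1277 CPM (log2 -1.52, -1.59 to -1.46). Ogn (osteoglycin, chr13:49608046-49624501, plus strand) stood at 183 and 36.1 CPM (-2.34, -2.76 to -1.96) and was detected in 47.5% and 10.4% of members, or 23.8% and 6.45% after thinning to equal depth. Dcn (decorin), the most abundant of them, stood at 3942 and 3371 CPM. Aspn (asporin) was higher at 1030 and 1504 CPM (0.55, 0.48 to 0.62).

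Of 16 matricellular and adhesive glycoproteins, 5 were at least 2-fold higher and 1, Cthrc1, lower, and 4 and 1 of 16 without the 4 sub-clusters. Over all tested genes 3.62% were higher and 2.52% lower, and 2.83% and 2.73% without the 4 sub-clusters, which is also the background of the elastic fibre and protease lists. Ccn1 and Ccn2, secreted targets of the YAP and serum response pathways, stood at 265 and 712 CPM, and at 19.1 and 52.2 CPM. Thbs1 (thrombospondin) stood at 26.1 and 121 CPM (log2 2.21, 1.88 to 2.54). Fn1 (fibronectin) stood at 609 and 302 CPM (-1.01, -1.15 to -0.87), just short of 2-fold on the CPM + 10 scale, and Sparc, a collagen-binding protein, at 11723 and 7530 CPM. Elastic fibre genes had 1 higher and 1 lower of 15 and a median of -0.05, with Eln at 679 and 759.6 CPM, and 0 higher and 1 lower of 14 without the 4 sub-clusters. Among 13 proteases and inhibitors 1 was at least 2-fold higher, Adamts1, a versican-cleaving protease, at 55.8 and 187 CPM, and it alone of 12 without the 4 sub-clusters.

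Ligands and binding proteins differed most among the insulin-like growth factor (IGF) binding proteins, which hold IGF in the matrix. Igfbp3 stood at 20.5 and 340.4 CPM (log2 4.05, 3.75 to 4.37) and Igfbp7 at 95.3 and 1017 CPM (3.42, 3.27 to 3.56). Igfbp5 went the other way, at 236 and 56.1 CPM (-2.07, -2.40 to -1.76). Igfbp5 was lower in sub-clusters 0, 1 and 3, by -3.55, -2.54 and -2.19. Igfbp7 was higher in sub-cluster 1 (1.73) and lower in sub-clusters 0 and 3 (-0.78 and -0.77). Igf1 itself stood at 114 and 244 CPM over all members and had a ratio of -0.33 within sub-cluster 3, which it leads. Mdk (midkine), a heparin-binding growth factor, stood at 183 and 50.3 CPM (-1.86, -2.22 to -1.53). Of 21 tested genes of this list 6 were at least 2-fold higher and 3 lower, against 3.62% and 2.52% of all tested genes. Leaving out the 4 sub-clusters gave 3 of 20 higher (Igfbp3, Igfbp7 and Igf1) and 3 lower (Igfbp5, Mdk and Sema3a), against 2.83% and 2.73%.

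Receptors had 5 of 15 at least 2-fold higher, against 3.62% of all tested genes, none lower and a median of 0.84. Igf1r, the IGF receptor, stood at 43.9 and 153 CPM (log2 1.81, 1.54 to 2.08), and its ratios in sub-clusters 0, 1 and 3 were 2.09, 1.15 and 1.59. Tgfbr2, a TGF-beta receptor, stood at 86.0 and 219 CPM (1.35, 1.14 to 1.56). The hedgehog receptor Ptch1 stood at 79.2 and 196 CPM (1.31, 1.09 to 1.52), and Il6st, the shared receptor of IL-6 family cytokines, at 75.6 and 172 CPM (1.19, 0.96 to 1.42). Without the 4 sub-clusters 4 of 15 were at least 2-fold higher, against 2.83%, and the median was 0.78.

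Adipocyte precursor genes had 6 of 10 tested at least 2-fold higher, against 3.62%, and a median of 1.44, with Fabp4 and Cd36 among the leading genes of sub-cluster 7. Fabp4 (chr3:10204088-10208576, minus strand) stood at 18.2 CPM (14.7 to 22.2) in control and 715 CPM (674 to 758) in induced members, and was detected in 4.77% and 12.1% of them (2.31% and 9.68% after thinning). Without the 4 sub-clusters its log2 ratio was 0.77 in place of 4.69, and 3 of 9 genes of the list were at least 2-fold higher (median 0.77), against 2.83%. Lepr, the leptin receptor, was higher throughout, at 18.7 and 123 CPM (2.72, 2.36 to 3.08), with ratios of 1.84, 1.39 and 1.13 in sub-clusters 0, 1 and 3. Cebpa, a regulator of adipocyte differentiation, stood at 31.5 and 23.9 CPM, and Cd24a at 135 and 82.5 CPM.

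Lineage lists gave mixed results, to be read against 3.62% higher and 2.52% lower over all tested genes (2.83% and 2.73% without the 4 sub-clusters). Papillary genes had 0 higher and 2 lower of 10, with a median of -0.29, and 0 higher and 1 lower (Crabp1) of 10 with a median of 0.04 without the 4 sub-clusters. Crabp1, a retinoic acid carrier (chr9:54764748-54773110, plus strand), stood at 234 and 36.1 CPM (log2 -2.70, -3.11 to -2.31), and Dkk2, a secreted Wnt antagonist, at 182 and 81.9 CPM. In sub-cluster 3 Crabp1 stood at 1088 CPM in control and 67.4 CPM in induced members. Reticular genes had 4 of 7 at least 2-fold higher and 1 lower, but Mgp (5.02 and 189 CPM) and Mfap5 (20.1 and 151 CPM) lead sub-cluster 7, and without the 4 sub-clusters 1 of 5 was higher. Of 10 fascia genes 1 was higher, Ly6a (20.3 and 164 CPM), and 1 lower, Opcml (25.1 and 5.16 CPM), and without the 4 sub-clusters Sema3c was lower too. Dpp4, a surface peptidase of fascia fibroblasts, stood at 176 and 91.6 CPM.

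Genes of DNA replication and mitosis were lower in induced members. Of 22 listed, 19 passed the minimum and 16 were at least 2-fold lower, against 2.52% of all tested genes, with a median log2 ratio of -1.55. Top2a, which untangles DNA in mitosis, had 522 UMIs (101 CPM) in control and 31 UMIs in induced members (log2 -2.34, -2.91 to -1.81). Mki67, a marker of dividing cells, stood at 65.1 and 6.45 CPM (-3.34, -4.41 to -2.44). Hmgb2, a chromatin protein of cycling cells, stood at 249 and 101 CPM (-1.30, -1.54 to -1.06). The control value was the higher one for each of the 19, and without the 4 sub-clusters 16 of 19 were at least 2-fold lower, against 2.73%. That count still holds the mitotic sub-cluster 8 (27 control and 1 induced members), and none without it is given.

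The share of cycling members, counted as those in which the 15 G2/M genes gave 2 or more UMIs after thinning to 2000, was 63 of 520 (12.1%, 9.44 to 15.2) in the control library and 14 of 217 (6.45%, 3.57 to 10.6) in the induced library. Without thinning, and with deeper control cells, the shares were 33.6% and 22.5%. With the 4 sub-clusters left out they were 11.5% (8.71 to 14.7) and 3.05% (0.997 to 6.97). The list rests on few cells. When the 7% of barcodes with the highest doublet scores were removed, 14 of the 27 control members of the mitotic sub-cluster 8 went with them, and 5 of 13 tested genes were at least 2-fold lower (median -0.83), against 1.89% of all genes. Thinned to equal depth, 5 of 9 were, against 2.70%. In keratin-rich barcodes 12 of 21 were at least 2-fold lower, with a median of -1.03, against 3.94% of all genes tested there. In sub-clusters 0, 1 and 3 only 1, 2 and 3 genes of the list passed the minimum, with medians of 0.15, -0.13 and -1.14, so the list could hardly be read within them.

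Promoters of these genes were read for elements known from cell cycle genes. RefSeq windows matched 20 of the 22. The CCAAT box (CCAAT on either strand) was in 17 of 20 (85.0%), against 33.8% of all 32851 windows and 10 of 19 immediate early genes (52.6%). The cell cycle homology region TTTGAA on either strand was in 8 of 20 (40.0%), against 16%. The 2 motifs do not overlap in letters. Hmgb2 (chr8:57511593-57511842, plus strand) had 4 CCAAT and 2 TTTGAA matches, and Top2a (chr11:99024190-99024439, minus strand) had 6 and 2. Both windows, GRCm38.p6, are shown 5′ to 3′ with these matches in capitals.
Hmgb2: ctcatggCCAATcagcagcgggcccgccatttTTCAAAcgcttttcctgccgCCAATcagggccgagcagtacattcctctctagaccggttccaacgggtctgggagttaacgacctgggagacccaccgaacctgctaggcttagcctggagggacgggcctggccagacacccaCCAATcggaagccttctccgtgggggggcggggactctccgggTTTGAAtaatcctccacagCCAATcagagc
Top2a: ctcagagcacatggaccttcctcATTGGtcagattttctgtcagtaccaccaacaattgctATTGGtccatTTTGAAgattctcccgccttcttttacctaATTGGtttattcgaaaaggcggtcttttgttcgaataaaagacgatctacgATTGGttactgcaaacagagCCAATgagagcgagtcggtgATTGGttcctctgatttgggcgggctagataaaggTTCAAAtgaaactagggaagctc

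The genes with the largest differences by a fixed rule of size are the next result. The rule gave 136 genes higher and 71 lower in the induced library, of which the 12 largest in each direction are named. Higher were Fabp4, Apod, Igfbp3, Igfbp7, Slco2a1, Klf2, Igfbp6, Cebpd, Clec3b, Cxcl1, Ly6a and Adm. Lower were Pclaf, Cthrc1, Tac1, Nnat, Crabp1, Sfrp2, Mki67, Prss35, Ogn, Stmn1, Ccdc42 and Rrm2. Some of them rest on sub-clusters that 1 library dominates and some recur within shared ones, while others, such as Igfbp7 and Cxcl1, differ in sign between shared sub-clusters.

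The ratios of Fabp4, Igfbp6, Slco2a1, Clec3b and Adm shrank below 2-fold without the 4 sub-clusters, to log2 values of 0.77, 0.50, 0.43, 0.86 and 0.71. Slco2a1, a prostaglandin transporter, had 5 UMIs in control members and 131 in induced members. Apod, a lipid-carrying apolipoprotein, stood at 16.8 CPM (13.5 to 20.7) and 429 CPM (397 to 463), a ratio of 4.03 on the CPM + 10 scale that dropped to 1.43 without them. Cebpd, a factor of the acute phase response (chr16:15887286-15891031, plus strand), stood at 49.7 CPM (43.8 to 56.1) and 377 CPM (347 to 408), a log2 ratio of 2.92 (2.71 to 3.14). In sub-clusters 0, 1 and 3 Cebpd differed by 1.67, 3.62 and 2.09, and Klf2 by 3.49, 2.96 and 2.18. Cebpd and Klf2 were thus higher in each shared sub-cluster.

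Among the falls, Sfrp2, a secreted Wnt modulator (chr3:83766321-83774316, plus strand), stood at 629 CPM (607 to 651) in control and 125 CPM (108 to 144) in induced members, a log2 ratio of -2.33 (-2.55 to -2.12). It was detected in 69.8% and 33.8% of members at their own depths, and in 47.9% and 18.9% after thinning to equal depth. Within sub-cluster 0 it stood at 1190 and 292 CPM, within sub-cluster 1 at 914 and 198 CPM, and within sub-cluster 3 at 313 and 90.9 CPM. Ogn and Crabp1 were also lower in all 3. Sfrp2 was lower in Dlk1-high fibroblasts as well, at 1907 and 335 CPM.

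Cthrc1, a secreted protein of collagen-producing cells, stood at 246 and 32.9 CPM (log2 -2.90, -3.34 to -2.50), and Tac1, the substance P precursor, at 121 and 12.3 CPM. Both are leading genes of sub-cluster 2, which has 2 induced members, and within sub-clusters 0, 1 and 3 Cthrc1 differed by -0.72, -0.63 and -1.11. Pclaf, a PCNA-binding replication gene, had 398 UMIs in control and 1 UMI in induced members (log2 -6.90, -12.21 to -4.41). Nnat, an imprinted gene, had 291 and 3 UMIs (-4.86, -7.15 to -3.30). Pclaf, Mki67, Rrm2 and Stmn1 are all linked to division. Stmn1, the one with the most UMIs, differed by -0.85, -0.67 and -1.62 in sub-clusters 0, 1 and 3.

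**Figure D3:**
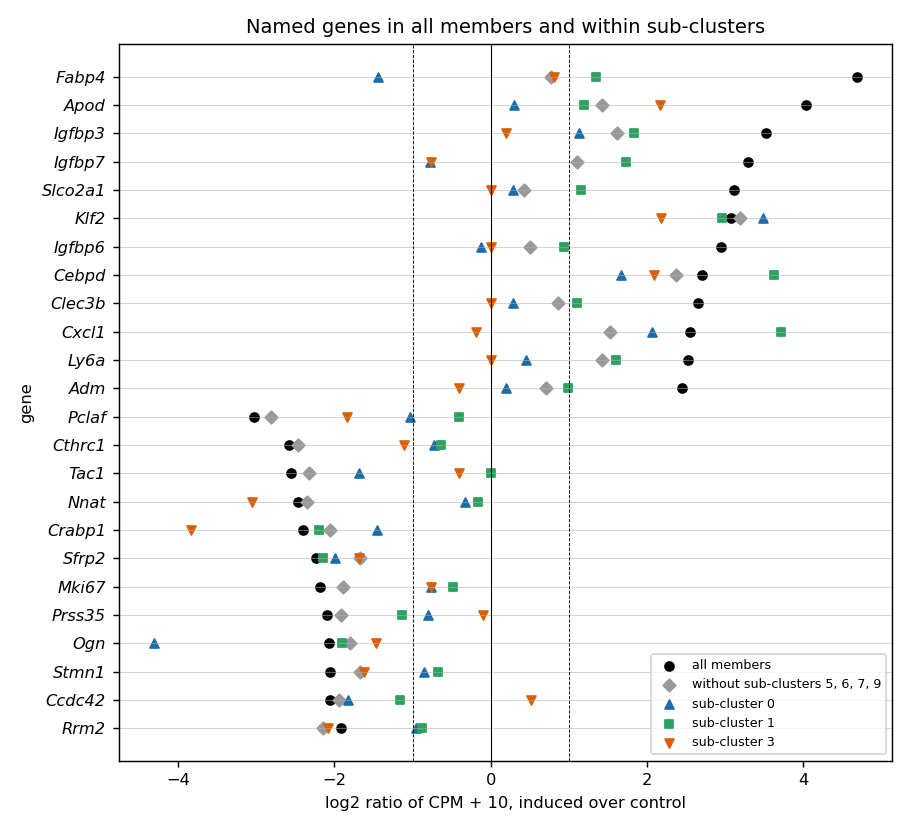
Log2 ratio of CPM + 10, induced over control (horizontal axis), for the 24 genes named by size (vertical axis), in all members (black), without sub-clusters 5, 6, 7 and 9 (grey), and in sub-clusters 0, 1 and 3 (blue, green, orange), with dashed lines at 2-fold. Sfrp2, Crabp1 and Ogn lie left of the lower dashed line and Klf2 and Cebpd right of the upper one in every set, whereas Fabp4 ranges from -1.44 in sub-cluster 0 to 4.69.

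Other lists had few members past 2-fold, again against 3.62% and 2.52% of all tested genes. Of 22 dermal transcription factors 2 were at least 2-fold higher, Klf4 (76.1 and 275 CPM) and Foxd1 (40.4 and 119 CPM), and none was lower, while the lineage factors Twist1 (822 and 862 CPM) and Prrx1 (297 and 493 CPM) did not reach 2-fold. None of the 15 tested genes of the imprinted list, which does not hold Nnat, reached 2-fold, with Meg3, the maternally expressed partner of Dlk1, at 2371 and 2429 CPM. Of 13 Wnt genes Sfrp2 and Dkk2 were lower and none was higher, and without the 4 sub-clusters Sfrp2 was lower and Nkd2 higher of 12. Axin2, a Wnt target, stood at 67.2 and 50.3 CPM. Of 9 interferon genes 2 were higher, Ifitm1 (241 and 1039 CPM) and Ifitm3 (251 and 827 CPM), and 1 lower, Ifi27l2a (21.3 and 3.87 CPM). Of 13 hypoxia and glycolysis genes only Adm reached 2-fold, and Gapdh stood at 780.1 and 448 CPM. Of 10 contractile genes only Tagln did, at 87.5 and 306 CPM. Leaving out the 4 sub-clusters added Foxp1, the imprinted Cdkn1c, Irf1 and Mylk to the higher genes of these lists and took out Ifitm3, while Ndrg1 took the place of Adm.

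The induced microRNA was followed through its seed. The libraries read polyadenylated RNA and hold no mature microRNA. Their RefSeq sequences (GRCm38.p6, chromosome 4, minus strand) are given to show the bases that were searched, with the seed, bases 2 to 8, in capitals. mmu-miR-200b-3p (chr4:156055685-156055706) and mmu-miR-429-3p (chr4:156053916-156053937) share a seed, while that of mmu-miR-200a-3p (chr4:156054911-156054932) differs.
mmu-miR-200b-3p: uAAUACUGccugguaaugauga
mmu-miR-429-3p: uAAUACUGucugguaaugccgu
mmu-miR-200a-3p: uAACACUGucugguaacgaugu

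Genes whose longest annotated 3′ untranslated region held the seed match CAGTATT (plus strand of the transcript) had a median ratio slightly above that of all genes. Of 1249 such genes 39 (3.12%) were at least 2-fold higher and 21 (1.68%) lower, with a median log2 ratio of 0.06. Over all 6811 genes with such a region the shares were 3.55% and 2.50%, with a median of -0.01. With 2 or more matches, 6 of 236 genes were higher and 2 lower (median 0.13). Zeb1 and Zeb2, with 5 matches each, stood at 73.0 and 72.2 CPM (interval of the log2 ratio -0.33 to 0.29) and at 845 and 868 CPM (-0.05 to 0.13). Sec23a, a coat protein gene of secretory vesicles with 3 matches, stood at 95.1 and 49.6 CPM (-1.30 to -0.59). Cfl2, an actin-binding protein gene with 2, stood at 149 and 135 CPM. The median of genes with a match was 0.15 against 0.01 without the 4 sub-clusters, and 0.14 against 0.02, 0.01 against -0.08 and 0.15 against -0.02 in sub-clusters 0, 1 and 3.

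Gm13648, the annotated host transcript of this microRNA cluster (chr4:156052715-156059802, minus strand), had 0 UMIs in control members, which allows up to 0.580 CPM, and 24 UMIs in induced members, or 15.5 CPM (9.91 to 23.0). It was found in 8.33% of induced members, or 2.76% after thinning. In keratin-rich barcodes it stood at 2.34 CPM in the control and 529 CPM in the induced library. If all keratin UMIs in members were free RNA, 29.5 Gm13648 UMIs would be expected in induced members, more than were found.

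Dlk1-low and Dlk1-high fibroblasts were last compared within each library. The Dlk1-high cells met every other condition of the choice and numbered 31 in the control and 33 in the induced library, with median depths of 7683 and 7784 UMIs. This contrast is the one by which the members were chosen, so the values are a description. Of 4986 genes tested, 127 (2.55%) were at least 2-fold higher and 56 (1.12%) lower in Dlk1-low cells in both libraries. Dlk1-low cells gave far more UMIs, so genes high only in Dlk1-high cells passed the minimum less easily. Adm, at 4.44 CPM in Dlk1-low and 74.5 CPM in Dlk1-high control cells, did not pass it. The counts higher and lower are therefore not to be set against each other. The Dlk1-low values of the 2 libraries come from separate cells, while each library's own low and high values share its processing.

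Of 9 tested papillary genes 6 were at least 2-fold higher in Dlk1-low cells in both libraries, beside 2.55% of all genes, with medians of 1.26 in the control and 1.53 in the induced library. Apcdd1, a Wnt inhibitor, stood at 419.7 CPM in Dlk1-low and 134 CPM in Dlk1-high control cells, and at 536 and 57.9 CPM in the induced library. Dkk2 stood at 182 and 7.45 CPM in control cells and at 81.9 and 0 CPM in induced cells. Lrig1, an inhibitor of EGF receptors, stood at 105 and 22.3 CPM and at 88.3 and 33.1 CPM. Trps1, Cav1 and Crabp1 were the others. Axin2 and Lef1 fell short of 2-fold in at least 1 library, and Ntn1 differed in sign between them (-0.43 in control and 0.29 in induced cells).

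Of 15 tested imprinted genes 6 were at least 2-fold lower in Dlk1-low cells in both libraries, beside 1.12% of all genes. Among the 6 is Dlk1 itself, which chose the cells. The other 5 were Igf2, H19, Meg3, Rian and Plagl1. The remaining 9, among them Peg3, Cdkn1c, Zim1, Ndn and Gnas, did not reach 2-fold in both, and Mest differed in sign between the libraries. Meg3 stood at 2371 CPM in Dlk1-low and 6705 CPM in Dlk1-high control cells, and at 2429 and 5214 CPM in the induced library. H19, a growth-restraining RNA, stood at 152 and 759.9 CPM and at 113 and 637 CPM. Plagl1, a zinc finger regulator of other imprinted genes, stood at 58.0 and 350.1 CPM and at 38.7 and 182 CPM.

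By size, the leading genes on the Dlk1-low side included Coch, Dkk2, Col11a1, Itih5, Egfl8, Sostdc1, Prss23, Efnb2, Spon1 and Ndnf. Itih5, a hyaluronan-binding protein, stood at 1376 and 168 CPM in the control and at 1171 and 82.7 CPM in the induced library. Coch, which leads sub-cluster 10, had 0 UMIs in the Dlk1-high cells of both libraries. Egfl8 stood at 1233 CPM in sub-cluster 5 and 1.89 CPM in all other members, so its Dlk1-low level rests mostly on that sub-cluster. On the Dlk1-high side were C1qtnf3, Rbp4, Ly6a, H19, Lpl, Plagl1, Itm2a, Thbs2, Tnxb, Serping1, Thbs1 and Serpinf1. C1qtnf3, a secreted adiponectin relative, stood at 70.9 and 954 CPM in control and 52.2 and 372 CPM in induced cells. Lpl, lipoprotein lipase, stood at 146 and 801 CPM and at 649 and 2779 CPM, higher in the induced library on both sides of the limit.

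**Figure D4:**
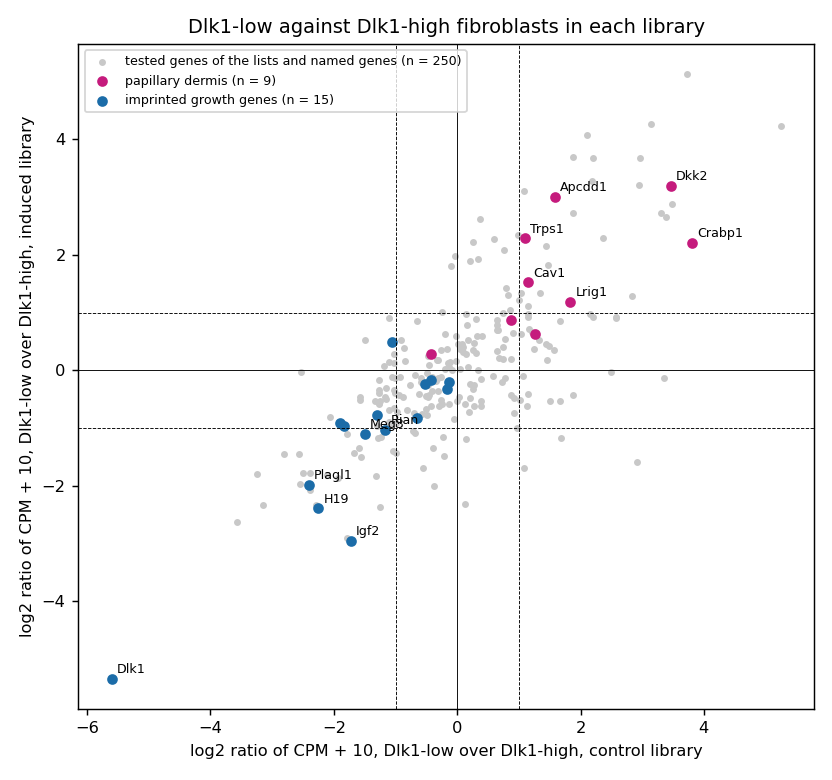
Log2 ratio of CPM + 10, Dlk1-low over Dlk1-high fibroblasts, in the control (horizontal) and induced (vertical) library, each point 1 gene of the lists or named genes, with dashed lines at 2-fold. Of the papillary genes (pink) 6 of 9 lie beyond both upper dashed lines, and of the imprinted genes (blue) 6 of 15 lie beyond both lower ones, among them Dlk1, which chose the cells, and points with no UMI on the Dlk1-high side depend on the added 10 CPM.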

How the data were processed

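The authors deposited unnormalized UMI counts for each library. The submitters' processing notes name Cell Ranger 6.0.0 and the mm10 build. Their cell-calling settings are not given in the sources used here. The deposited matrices held 32285 genes, and no barcode had under 500 UMIs. Counts of members were summed per library and scaled to CPM. Poisson, conditional binomial and Clopper-Pearson intervals (95%) cover counting error only, since PCR copies are removed by UMI but cells of 1 library are not replicates. No doublets were removed in the main values. Sub-clusters used 1500 variable genes, 20 components, 15 neighbours and Leiden resolution 0.6. Detection shares are over all members, unthinned, unless said to be after thinning to 2000 UMIs, which left out 4 control and 23 induced members.

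Genes named by size were the 12 largest differences in each direction of CPM + 10, if the libraries together held 100 UMIs, with 50 CPM and detection in 10% of members in the higher library, Poisson intervals that do not overlap, and the same direction and at least 2-fold in the mean over cells. Not eligible were genes of the choice, keratins, haemoglobins, and mitochondrial, sex-linked or ribosomal genes. The contrast with Dlk1-high cells took the 12 largest in each direction by the smaller of both libraries' ratios, and some of these are not reported here. Within lists, up to about 5 genes were named by level or ratio. Members, lists and rules were chosen with earlier results of these data known. Untranslated regions came from GENCODE vM21 (GRCm38). The calculation was tested on simulated data. Tools were scanpy 1.11.5 with leidenalg 0.10.2 for clustering, scipy 1.17.1 for intervals, and numpy 2.4.6, pandas 2.3.3 and matplotlib 3.10.9 under Python 3.11.15.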

Additional observations from a re-analysis of the deposited data

Results flagged for a closer look

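In 2 lists at least 3 genes were past 2-fold one way, with none the other way, in Dlk1-low fibroblasts, and the reverse held in keratin-rich barcodes of the same libraries. Medians had opposite signs in 13 of 21 lists, these 2 included. The differences were not tested. The median log2 ratio of immediate early genes, induced over control, was 1.75 in Dlk1-low fibroblasts and -0.46 in keratin-rich barcodes. That of adipocyte precursor genes was 1.44 and -0.94. Gm13648, which lies outside the lists, had 15.5 CPM in induced Dlk1-low fibroblasts and no UMI in control ones, or 24 UMIs where 29.5 would be expected if all keratin UMIs there were free RNA.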

How the results depend on the processing

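No paired analysis was possible because each group had 1 library, and for the same reason no library could be left out. The log2 ratio of the member share was -1.43 with keratins under 20 per 10000. Thinned to 2000 UMIs, 153 genes were at least 2-fold higher, 5 S and G2/M genes lower and 6 inflammatory genes higher, and the contrast with Dlk1-high cells gave 64 and 34 genes. With CPM + 20, 98 genes were lower. S and G2/M genes at least 2-fold lower numbered 5 without the highest doublet scores and 9 with equal weight per member. At Leiden resolution 0.3 there were 7 sub-clusters, 3 of them mostly from 1 library. Cycling shares without thinning were 33.6% and 22.5%. The alternatives by sub-cluster were added after the data had been seen. Without the 4 sub-clusters the induced cycling share was 3.05%. In sub-clusters 0, 1 and 3 alone, 130, 124 and 128 genes were higher, among them 2 of 4, 5 of 6 and 3 of 3 tested inflammatory genes, and 0 of 1, 0 of 2 and 2 of 3 tested S and G2/M genes were lower. Sub-cluster 3 had 79 genes lower, and sub-cluster 0 had 7 immediate early genes higher. Reversed there were Fabp4 (-1.44), Igfbp7 (-0.78) and Igfbp6 (-0.12) in sub-cluster 0, and Igfbp7 (-0.77), Cxcl1 (-0.19), Adm (-0.40) and Ccdc42 (0.51) in sub-cluster 3. The cause was not tested, beyond fewer cells and tested genes in these subsets. The remaining 102 values of main counts stayed within 1.5 times or the counting interval. Of the values for genes named by size, 205 moved beyond it, 7 reversed and 172 did not move. Depth limits genes under 20 CPM.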
